A study of Drosophila melanogaster with 18 samples.

Results

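Proteasome subunit genes were described across 18 microarrays of Drosophila melanogaster egg chambers. The members are all probe sets that the platform annotation pairs with a single gene whose symbol begins with Prosalpha, Prosbeta, Rpn or Rpt followed, for Rpn and Rpt, by a digit. That gave 41 of the 13966 probe sets tested, for 39 of the 10844 genes named by a probe set with a single gene. They fall into 26 subunit genes of the proteasome, read by 28 probe sets, and 13 duplicate genes with 1 probe set each. Of the canonical subunits, 6 were not named by a probe set with a single gene: Prosalpha1, Prosbeta1, Rpt1, Rpt6, Rpn9 and Rpn10. Sem1, the smallest lid subunit, has a symbol outside the pattern.

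The arrays measured total RNA of whole egg chambers of stages 9 to 10, dissected from ovaries of females aged 6 to 8 days, with a pool of 100 egg chambers per sample. All females had first been held on yeast at 23 °C for 24 h. The 4 perturbed groups carry the driver CY2-GAL4, which is active in follicle cells, the epithelium around the germline. EGFR gain carries UAS-lambda-Top, a constitutively active EGF receptor. EGFR loss carries UAS-dnEGFR, a dominant-negative receptor. BMP gain carries UAS-tkv*, an activated BMP receptor. These 3 groups were handled in round 1 with wild type A. BMP loss carries UAS-Dad, an inhibitory Smad, and was handled in round 2 with wild type B. Both wild types are Oregon R (OreR in the labels), so each comparison with wild type also compares the driver line with Oregon R, and no driver-only flies were analysed here. Each group has 3 arrays. The labels call them biological replicates, each an RNA pool of many females.

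The 26S proteasome is the main protease of the cytosol and nucleus and degrades proteins tagged with ubiquitin. Its core particle stacks rings of alpha subunits, which gate entry, around rings of beta subunits, some of which cut the substrate. The regulatory particle caps the core: its base holds a ring of ATPases (Rpt) that unfold and thread the substrate, with non-ATPase scaffolds and ubiquitin receptors, and its lid holds the enzyme that removes ubiquitin. Subunit genes of this complex are used by nearly all cells and are often regulated together. Drosophila also has duplicate copies of several subunit genes, and some of them, marked T, are known from the male germline.

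Values are the authors' deposited log2 signals, in which 1 unit is a 2-fold difference. A probe set's level depends on its probes as well as on its RNA, so levels of different genes give no order of RNA amounts. Differences were tested with limma over all 13966 probe sets and called at an adjusted p below 0.05. The array 25th percentile lay between 1.90 and 2.04 and the array median between 4.44 and 4.51 in round 1, against 4.02 to 4.04 for the median in round 2. EGFR loss replicate 3 stood apart: its actin control probes read 2.89 log2 units brighter at the 3' end than at the 5' end, against 0.85 to 1.63 on the other 17 arrays, which is a sign of RNA quality. Follicle cell markers were at gene means of 10.62 to 13.17 in wild type A (6 of 7 markers named) and germline markers at 5.34 to 9.89 (4 of 5 named). In RNA of whole egg chambers, fewer cells of a type and less RNA per cell cannot be told apart.

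The subunit genes were bright on every array and the duplicate genes dim. Levels of the 26 subunits ran between 7.67 (Rpn2, the scaffold of the base) and 10.26 (Prosbeta4, a non-catalytic beta subunit) in wild type A, with a median of 9.10. Next to Prosbeta4, the brightest were Rpt5 at 9.91 and Rpn5 at 9.83. Their lowest percentile on a wild type A array was 88.3, that of Rpn2. In wild type B they ran between 6.97 and 9.80. Their levels were also tight, with a median replicate SD of 0.08, against 0.291 over all probe sets and 0.092 over 1360 other probe sets at least as bright as the dimmest subunit. The lowest spread was that of Prosbeta4 (SD 0.035) and the highest that of Rpn8 (SD 0.157), the lid partner of the deubiquitinase. Wild type A read higher than wild type B by a median of 0.59 over the subunits, against 0.44 over all probe sets, so levels were compared only within a round.

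**Figure D1:**
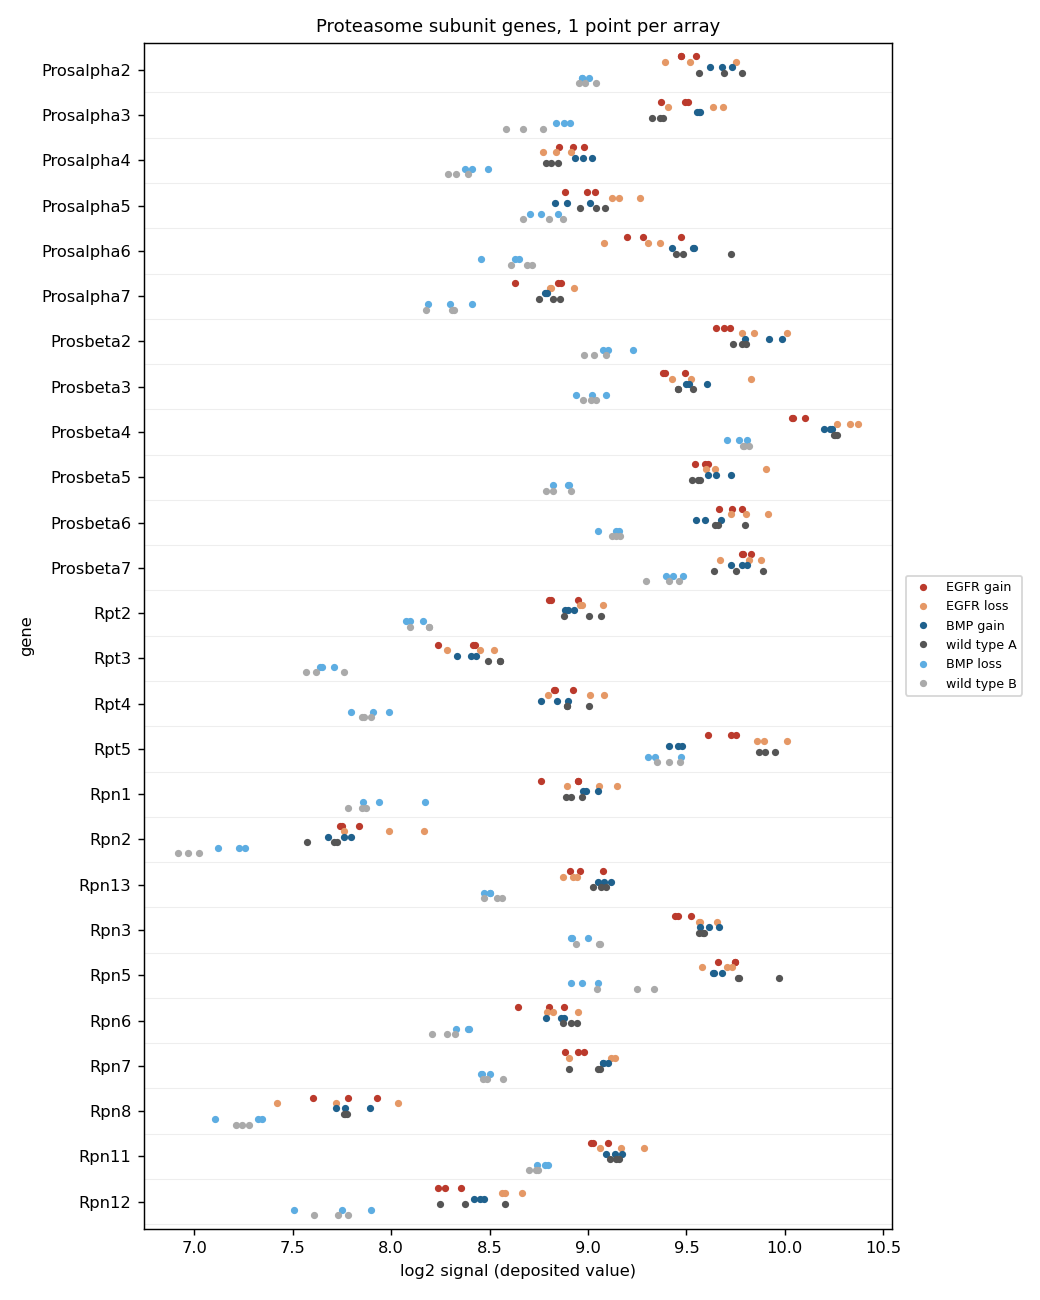
Deposited log2 signal (horizontal axis) of the 26 proteasome subunit genes (rows), with 1 point per array coloured by group. All points lie above 6.9, and within each round the groups of nearly every gene lie close together relative to the gap between rounds. Where a gene has 2 probe sets, the brighter is shown.

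Wild type A served the 3 groups of round 1 and wild type B served BMP loss. The comparisons ask whether EGFR or BMP signalling in the follicle cells changed subunit RNA of whole egg chambers. That RNA includes the germline's, so the changes and intervals below are not those of the follicle cells alone. Nearly all subunits stayed within a small range. Of the 104 changes (26 subunits in 4 comparisons), 101 were under 0.25 log2 units in size, and 103 had a 95% interval that lay wholly within a 1.5-fold change in either direction. The exception was Rpt5, an ATPase of the base, which was lower in BMP gain. Intervals within 1.5-fold were also common among the 1360 other probe sets at least as bright as the dimmest subunit. They numbered 1252 in EGFR gain, 1228 in EGFR loss, 1277 in BMP gain and 1267 in BMP loss. Over all 13966 probe sets they numbered 5693, 5447, 5904 and 5788 in the same order. Among the 41 members, limma called 0 in EGFR gain, where 2.81% of all probe sets were called, and 0 in EGFR loss (3.17% of all). It called 1 in BMP gain (2.39% of all) and 0 in BMP loss (2.29% of all). At an unadjusted p below 0.05 the members numbered 3 in EGFR gain (7.32%, against 13.7% of all probe sets), 6 in EGFR loss (14.6%, against 16.7%), 3 in BMP gain (7.32%, against 11.3%) and 5 in BMP loss (12.2%, against 13.4%). These shares are near or below those over all probe sets. For the 26 subunits alone the shares were 11.5%, 15.4%, 11.5% and 11.5% in the same order. Among the other probe sets at least as bright as the dimmest subunit they were 22.1%, 25.4%, 16.1% and 18.7%.

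**Figure D2:**
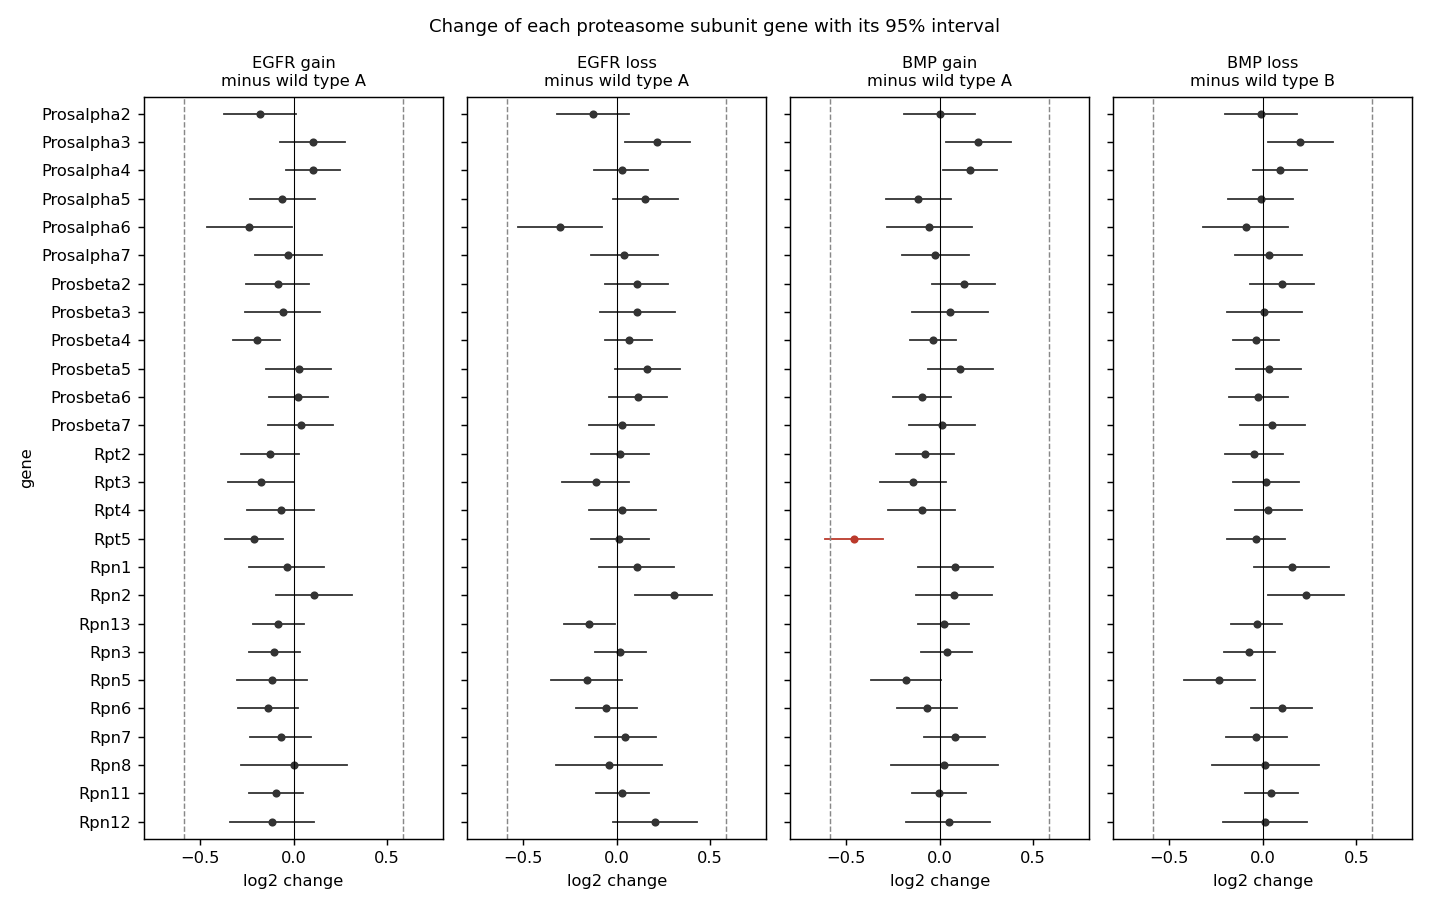
Log2 change (horizontal axis) of each of the 26 subunit genes (rows) in the 4 comparisons with wild type (panels), with bars for the 95% interval of limma's fit. Points cluster near 0 in all panels, and Rpt5 in BMP gain, at -0.46, stands farthest out.

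Among the catalytic beta subunits, Prosbeta2, which cuts after basic residues, read 9.69, 9.65 and 9.72 in EGFR gain, 9.78, 9.84 and 10.01 in EGFR loss, and 9.80, 9.92 and 9.98 in BMP gain, against 9.73, 9.78 and 9.80 in wild type A. All EGFR gain arrays lay below all wild type A arrays, by 0.09 on average (95% interval -0.26 to 0.08), while the EGFR loss and BMP gain arrays overlapped wild type A. In round 2 Prosbeta2 read 9.10, 9.08 and 9.23 in BMP loss, against 9.03, 9.09 and 8.98 in wild type B, and these groups overlapped. Prosbeta5, which cuts after hydrophobic residues, read 9.59, 9.54 and 9.61 in EGFR gain, 9.60, 9.65 and 9.90 in EGFR loss and 9.61, 9.73 and 9.65 in BMP gain, against 9.53, 9.57 and 9.56 in wild type A. Every EGFR loss and BMP gain array of Prosbeta5 lay above wild type A, with log2 changes of 0.16 (adjusted p = 0.332) and 0.11 (adjusted p = 0.725). The highest EGFR loss value of Prosbeta5 is that of replicate 3, the array with the 3' skew. For Prosbeta5 in round 2, BMP loss read 8.90, 8.82 and 8.90, against 8.82, 8.92 and 8.79 in wild type B, and these groups overlapped. The structural beta subunits stayed near wild type. Prosbeta7 differed from it by at most 0.05 log2 units, Prosbeta3 and the brighter probe set of Prosbeta6 by at most 0.11, and Prosbeta4 by at most 0.20.

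In the alpha ring, the largest differences were those of Prosalpha6. It read 9.28, 9.20 and 9.47 in EGFR gain and 9.08, 9.31 and 9.37 in EGFR loss, against 9.45, 9.48 and 9.73 in wild type A. EGFR loss lay wholly below wild type A, by 0.30 log2 units (95% interval -0.53 to -0.08, adjusted p = 0.157), and EGFR gain overlapped it. Prosalpha3, whose tail helps to close the gate of the core in yeast, read 9.41, 9.68 and 9.63 in EGFR loss and 9.56, 9.56 and 9.57 in BMP gain, against 9.32, 9.38 and 9.37 in wild type A. It read 8.88, 8.84 and 8.91 in BMP loss, against 8.77, 8.67 and 8.58 in wild type B. These 3 groups lay wholly above their wild types, with log2 changes of 0.22, 0.21 and 0.20 and adjusted p of 0.187, 0.308 and 0.289. At the other end, the brighter probe set of Prosalpha7 differed by at most 0.04 log2 units in any of the 4 comparisons. The limits were 0.18 for Prosalpha2, 0.16 for Prosalpha4 and 0.15 for Prosalpha5.

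In the base, Rpn2, the scaffold that holds the ubiquitin receptor Rpn13, read 7.76, 7.99 and 8.17 in EGFR loss, against 7.57, 7.71 and 7.72 in wild type A. EGFR loss lay wholly above wild type A, by 0.30 log2 units (95% interval 0.10 to 0.51, adjusted p = 0.111). Rpn2 also read 7.26, 7.23 and 7.12 in BMP loss, against 7.03, 6.92 and 6.97 in wild type B, a log2 change of 0.23 with groups that did not overlap (adjusted p = 0.29). Rpn13 itself differed from wild type by at most 0.15 log2 units. The ATPases Rpt2, Rpt3 and Rpt4 differed from wild type by at most 0.17, and Rpn1, a scaffold that also binds ubiquitin, by at most 0.15, in BMP loss.

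In the lid, Rpn11, the deubiquitinase that clips ubiquitin chains from the substrate, read 9.10, 9.01 and 9.02 in EGFR gain, 9.06, 9.17 and 9.28 in EGFR loss and 9.09, 9.14 and 9.17 in BMP gain, against 9.14, 9.11 and 9.16 in wild type A. Its largest change was -0.09, in EGFR gain (95% interval -0.24 to 0.05). Of the structural lid subunits, Rpn12 differed from wild type by at most 0.20, Rpn6 by 0.14, Rpn3 by 0.11, Rpn7 by 0.08 and Rpn8 by 0.04. Rpn5, another structural lid subunit, had a lower mean than wild type in all 4 groups. It read 9.75, 9.66 and 9.75 in EGFR gain, 9.58, 9.71 and 9.73 in EGFR loss and 9.68, 9.64 and 9.64 in BMP gain, against 9.77, 9.97 and 9.76 in wild type A. All 9 perturbed arrays of round 1 lay below all 3 wild type A arrays, yet none of the changes, at -0.12, -0.16 and -0.18, was called. Without wild type A replicate 2, the highest array, they were -0.05, -0.09 and -0.11. In BMP loss Rpn5 read 8.97, 8.91 and 9.05, against 9.33, 9.04 and 9.25 in wild type B (log2 change -0.23, adjusted p = 0.251), with 1 overlapping array. The 3 round 1 comparisons share wild type A.

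Rpt5 read 9.48, 9.41 and 9.46 in BMP gain, against 9.95, 9.90 and 9.87 in wild type A, and the 3 BMP gain arrays lay far below the wild type A arrays relative to their spread. The means were 9.45 ± 0.04 in BMP gain and 9.91 ± 0.04 in wild type A (SD, n = 3 each). Rpt5 fell by 0.46 log2 units, or 1.38-fold (SE 0.07, 95% interval -0.62 to -0.30, adjusted p = 0.00303 by limma). The call held with each array of the 2 groups left out in turn (adjusted p between 0.0117 and 0.0196). It did not hold when only these 6 arrays were fitted (adjusted p = 0.0836).

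The other groups place Rpt5 as follows. EGFR gain read 9.75, 9.61 and 9.73, below every wild type A array and above every BMP gain array (log2 change against wild type A -0.21, adjusted p = 0.178). EGFR loss read 9.90, 9.86 and 10.01 and overlapped wild type A (log2 change 0.02). BMP loss read 9.31, 9.34 and 9.47, against 9.35, 9.41 and 9.47 in wild type B, and these groups overlapped (log2 change -0.04, 95% interval -0.19 to 0.12). The response of Rpt5 to BMP gain minus its response to BMP loss was -0.42 (SE 0.10, adjusted p = 0.146), so a difference between the 2 responses was not called. Among the 41 members 0 were called in that comparison, which called 0.43% of all probe sets, and 2 members (4.88%) had an unadjusted p below 0.05, against 7.97% of all probe sets.

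**Figure D3:**
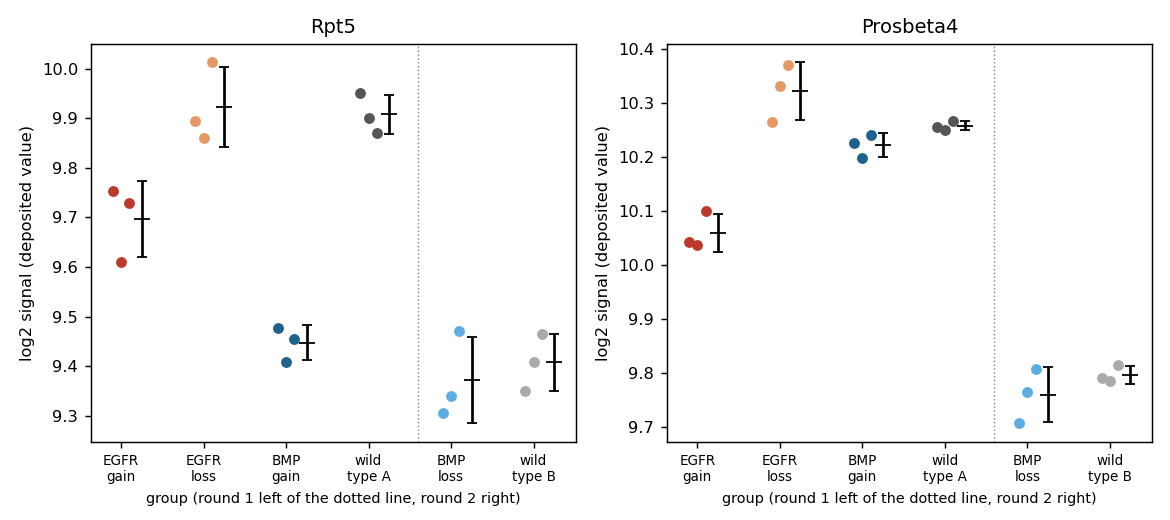
Deposited log2 signal (vertical axis) of Rpt5 and Prosbeta4 in the 6 groups (horizontal axis), with 1 point per array and a line at each group mean. The 3 BMP gain arrays of Rpt5 lie between 9.41 and 9.48, below the other round 1 arrays, and the 3 EGFR gain arrays of Prosbeta4 lie between 10.04 and 10.10, below the other round 1 arrays.

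The round 1 groups that share the driver were also compared directly, which leaves Oregon R out. Of the 41 members, 1 was called between EGFR gain and EGFR loss (2.1% of all probe sets), 0 between EGFR gain and BMP gain (1.27% of all) and 1 between EGFR loss and BMP gain (2% of all). At an unadjusted p below 0.05 the members numbered 6, 5 and 6, or 14.6%, 12.2% and 14.6%, near the 13.5%, 11.3% and 15.5% of all probe sets. The member called between EGFR loss and BMP gain was again Rpt5, higher in EGFR loss by 0.48 log2 units or 1.39-fold (95% interval 0.32 to 0.63, adjusted p = 0.00341), and this comparison shares its BMP gain arrays with the one against wild type A. The call was lost when only the 6 arrays were fitted (adjusted p = 0.255). Between EGFR gain and BMP gain, Rpt5 differed by 0.25 log2 units (adjusted p = 0.157).

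The member called between EGFR gain and EGFR loss was Prosbeta4, which read 10.04, 10.04 and 10.10 in EGFR gain, against 10.27, 10.33 and 10.37 in EGFR loss. The groups did not overlap, and Prosbeta4 was lower in EGFR gain by 1.2-fold (log2 change -0.26, SE 0.06, 95% interval -0.39 to -0.14, adjusted p = 0.0327). Wild type A read 10.26, 10.25 and 10.27, wholly above EGFR gain and overlapping EGFR loss. Against it Prosbeta4 had a log2 change of -0.20 in EGFR gain (adjusted p = 0.104) and 0.07 in EGFR loss (adjusted p = 0.636). The call between EGFR gain and EGFR loss was lost in a fit to the 6 arrays (adjusted p = 0.529) or to the 12 arrays of round 1 (adjusted p = 0.134). It was also lost without EGFR gain replicate 1, 2 or 3 (adjusted p = 0.117, 0.11 and 0.0571) and without EGFR loss replicate 2 or 3 (adjusted p = 0.0833 and 0.08).

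As a set, the subunits leaned lower in EGFR gain by a small amount. Of the 26 subunits, 19 had a lower mean in EGFR gain than in wild type A, with a median log2 change of -0.08, against -0.002 over all probe sets, of which 50.4% were lower. In EGFR loss 7 of 26 were lower (median 0.03), in BMP gain 13 (median 0.006) and in BMP loss 11 of 26 against wild type B (median 0.01). Between EGFR gain and EGFR loss, 20 of 26 subunits were lower in EGFR gain (median -0.12, against 0.01 over all probe sets). The median of the subunits on each array, relative to the mean of its round, was -0.03, -0.10 and -0.04 in EGFR gain and -0.03, 0.04 and 0.11 in EGFR loss, against -0.002, 0.02 and 0.03 in wild type A. All EGFR gain arrays thus lay below all wild type A arrays, and the EGFR loss arrays overlapped wild type A. No test was made of the set.

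EGFR loss replicate 3, the array with the 3' skew, was the highest of its group for 17 of the 26 subunits and for 38.4% of the other bright probe sets. EGFR gain replicate 3, with the next largest 3' skew (1.63), was the highest of its group for 16 subunits and 37.3% of those probe sets. BMP loss replicate 3, with a skew of 1.08, was the highest for 14 subunits and 33.9% of those probe sets. Without EGFR loss replicate 3 the median of the subunits in EGFR loss against wild type A was 0.006, with 12 of 26 lower. Between EGFR gain and EGFR loss it was then -0.08, with 20 of 26 lower. Muscle markers (7 of 10 named), summed over genes on the log2 scale, ranged from 28.64 to 34.04 in EGFR loss, against 22.02 to 24.39 in wild type A. Fat body markers (5 of 6 named) ranged from 19.74 to 26.34 in EGFR loss, against 14.25 to 16.6 in wild type A. In EGFR gain the muscle sum was 18.6 to 21.7, below wild type A, and in BMP gain it was 23.55 to 28.57. Haemocyte markers (4 of 4 named) summed to 4.02 to 6.15 in EGFR loss, against 1.31 to 2.25 in wild type A.

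The marker sums of the egg chamber itself also differed between groups, but their genes did not all move together. The follicle cell sum was 73.03 to 73.37 in EGFR gain, 71.52 to 72.16 in EGFR loss and 74.09 to 74.34 in BMP gain, against 73.64 to 73.97 in wild type A, with no overlap. In BMP gain Yp1, Yp2 and Yp3 (12.511 against 11.866) were higher than in wild type A. There Vm26Aa, Vm34Ca and psd (10.372 against 10.618) were lower. In EGFR gain Yp1 and Yp2 were higher and the other follicle cell markers lower, and in EGFR loss all were lower. The germline sum was 28.52 to 28.92 in EGFR gain, where the subunits leaned lower, and 28.21 to 29.02 in EGFR loss. It was 31.4 to 31.97 in BMP gain, where Rpt5 was called, against 29.41 to 30.08 in wild type A. The higher sum in BMP gain rests on bam, which averaged 7.965 there, against 5.911 in wild type A. There vas (8.445 against 8.661) and grk (5.276 against 5.34) were lower, and osk was 9.961 against 9.888. In EGFR gain all 4 genes were lower than in wild type A, bam the most (5.102). The part of these cell types and of RNA quality in the differences of the subunits, Rpt5 included, was not tested.

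The 13 duplicate genes all lay below the array median in wild type A, with means between -0.12 (Prosbeta4R1) and 2.91 (Rpt3R), and 8 of them below the 25th percentile. Of the core duplicates, Prosalpha6T averaged 2.84, Prosalpha3T 2.52, Prosalpha4T2 2.27, Prosbeta2R2 1.81, Prosbeta5R1 1.41, Prosbeta4R2 1.37, Prosbeta2R1 1.18 and Prosalpha4T1 0.42 in wild type A. Of the regulatory duplicates, Rpt4R averaged 2.51, Rpn13R 1.71 and Rpn12R 0.81. The parent genes, probed elsewhere on the array, were all in the top range given above. Markers of testis, the tissue in which several duplicates are known to be used, had means in wild type A between -1.29 (dj) and 4.73 (Mst87F), with 8 of 8 markers named. At these levels replicates spread widely. The median replicate SD of the duplicates was 0.743, with the lowest in Prosbeta2R1 (0.196) and the highest in Prosbeta5R1 (1.32).

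Single duplicates show that spread. Prosbeta5R1 read -0.07, 3.18 and 2.52 in EGFR gain, against 2.74, 0.09 and 1.41 in wild type A, so that arrays of 1 group differed by more than 3 log2 units in EGFR gain. Prosalpha3T, known from the male germline, read 2.94, 2.72 and 2.23 in EGFR gain and 2.42, 2.78 and 3.19 in EGFR loss, against 2.42, 2.03 and 3.10 in wild type A. Those groups overlapped, and so did Rpt3R, at 3.26, 3.29 and 3.67 in EGFR gain, against 1.95, 3.39 and 3.38 in wild type A.

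No duplicate was called in any of the 8 comparisons. Their most extreme changes against wild type were -1.08 (Prosbeta4R2) and 0.82 (Prosbeta2R2) in EGFR gain, -1.49 (Prosbeta4R2) and 1.51 (Prosbeta4R1, adjusted p = 0.193) in EGFR loss, -1.20 (Rpn13R) and 0.73 (Prosbeta5R1) in BMP gain, and -1.58 (Rpn13R) and 1.07 (Prosbeta2R2) in BMP loss. Prosbeta4R1 read 0.38, 2.91 and 0.85 in EGFR loss, so its mean there rests on replicate 2, and without it the change was 0.74. The other extremes also varied in size with single arrays, without a change of sign. With each array left out in turn, the change of Prosbeta4R2 ran from -1.85 to -0.62 in EGFR gain and from -1.81 to -1.22 in EGFR loss. That of Prosbeta2R2 ran from 0.41 to 1.33 in EGFR gain and from 0.46 to 1.68 in BMP loss, that of Prosbeta5R1 from 0.05 to 1.78 in BMP gain, and that of Rpn13R from -1.88 to -0.68 in BMP gain and from -2.35 to -1.08 in BMP loss. The median half-width of the 95% interval was 1.25 log2 units for the duplicates and 0.17 for the subunits, so in a typical duplicate a 2-fold change was not detectable at this signal.

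**Figure D4:**
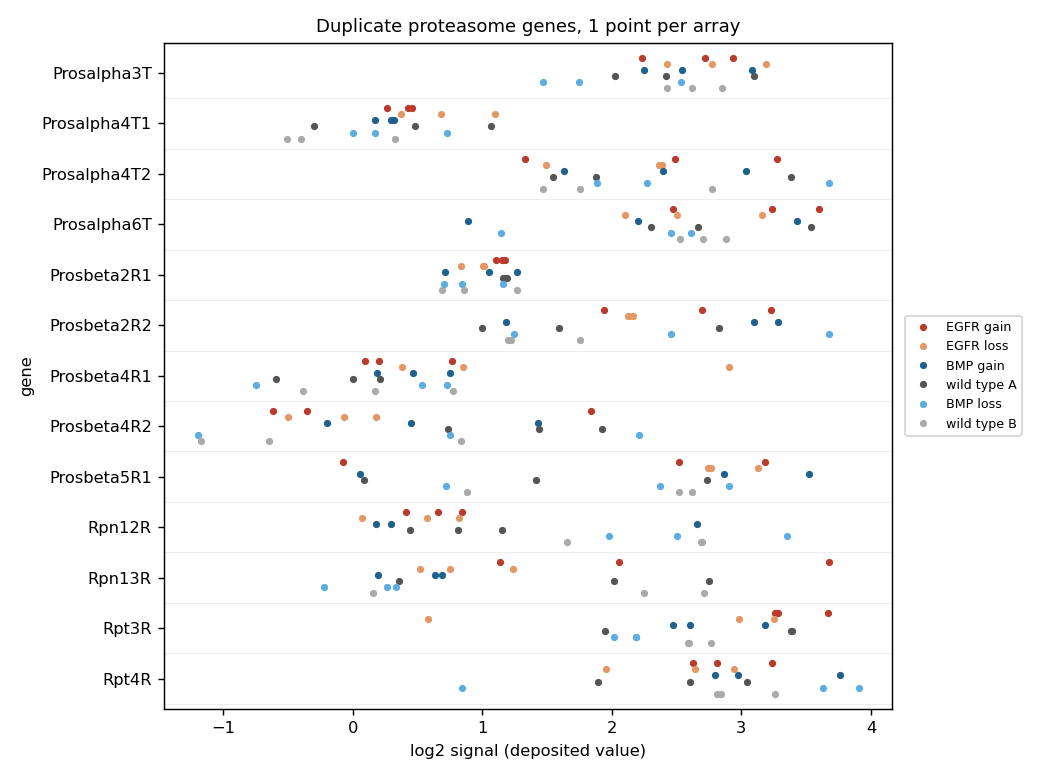
Deposited log2 signal (horizontal axis) of the 13 duplicate genes (rows), with 1 point per array coloured by group. The points of a gene spread over up to several log2 units within groups, and all group means in wild type A lie at or below 2.91.

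Both subunits with another probe set showed how far a level depends on the probes. Prosalpha7 averaged 8.81 in wild type A on its brighter probe set and 0.76 on the other, and neither was called in any comparison. The dimmer probe set of Prosbeta6 read 4.85, 4.60 and 4.39 in EGFR loss, against 4.34, 4.02 and 4.08 in wild type A. Its groups did not overlap, and the log2 change was 0.47 (95% interval 0.18 to 0.76, adjusted p = 0.0875). The brighter probe set of Prosbeta6 read 9.80, 9.91 and 9.73 in EGFR loss, against 9.66, 9.65 and 9.80 in wild type A, which overlapped (log2 change 0.11, adjusted p = 0.468). The dimmer one was called without EGFR loss replicate 3 (adjusted p = 0.049). In BMP loss the dimmer probe set of Prosbeta6 had a log2 change of -0.315. There the brighter one averaged 9.12, against 9.14 in wild type B. In the difference of the BMP responses the dimmer one had 0.60 and the brighter one -0.07, and neither was called.

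Genes that act with the proteasome were read from a list of 64 genes, of which 48 had a probe set of their own. They are regulators and assembly factors (9 of 13 measured), ubiquitin genes and E1 activating enzymes (8 of 9), E2 conjugating enzymes (6 of 14), the segregase TER94 and its adaptors (6 of 8), the COP9 signalosome (7 of 8) and cullin ligases (12 of 12). The E1 genes measured were Uba2, Aos1, Uba3 and APP-BP1, which serve ubiquitin-like proteins. Uba1, the E1 of ubiquitin itself, was not measured. In all 7 comparisons of 2 groups, limma called 0 of the 48, where 1.27% to 3.17% of all probe sets were called. At an unadjusted p below 0.05 there were 6 of the 48 in EGFR gain, 6 in EGFR loss, 5 in BMP gain and 1 in BMP loss. Over all probe sets the shares were 13.7%, 16.7%, 11.3% and 13.4%. Between EGFR gain and EGFR loss there were 6, between EGFR gain and BMP gain 6, and between EGFR loss and BMP gain 7. Over all probe sets the shares there were 13.5%, 11.3% and 15.5%. The median of the 48 lay between -0.06 and 0.01 in these comparisons.

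The lowest change in EGFR gain was that of Uch-L5, a deubiquitinase that docks on Rpn13. Uch-L5 read 8.12, 7.53 and 8.12 in EGFR gain, against 8.46, 8.43 and 8.42 in wild type A, with no overlap (log2 change -0.52, adjusted p = 0.0955), with its lowest value in EGFR gain replicate 2. The log2 change of Uch-L5 was -0.34 in EGFR loss, -0.28 in BMP gain and -0.03 in BMP loss. CSN8, a COP9 signalosome subunit, read 7.59, 7.60 and 7.77 in EGFR loss, against 7.42, 7.26 and 7.35 in wild type A, with no overlap (log2 change 0.31, adjusted p = 0.0692). CSN8 had log2 changes of 0.26 in EGFR gain, 0.20 in BMP gain and 0.15 in BMP loss, none of them called. The gene cnc, which encodes the fly relative of the factor that induces proteasome genes in mammals, read 5.64, 5.85 and 5.73 in BMP gain, against 6.13, 6.08 and 5.99 in wild type A. Its groups did not overlap (log2 change -0.33, adjusted p = 0.326). The log2 change of cnc was also -0.33 in EGFR gain (adjusted p = 0.273), and it was -0.20 in EGFR loss and 0.007 in BMP loss. Pomp, a core assembly chaperone, had log2 changes of 0.03 in EGFR gain, 0.11 in EGFR loss, -0.007 in BMP gain and 0.20 in BMP loss (adjusted p = 0.385), the last being the highest of the 48 genes there. REG, an alternative cap of the core, differed from wild type by at most 0.08.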

How the data were processed

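Total RNA of egg chambers, 3 µg per sample, was measured on 18 Affymetrix arrays, per the labels' protocols. The authors deposited 1 table of log2 values for 14010 probe sets, made with the affy package, per the submitters' processing notes, with its version, background correction and summary step not given in the sources used here. From the highest value, 13.27, which is 9860 as a power of 2, the log base was inferred. Array medians agree within rounds and differ between them, so no renormalization was applied.

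Groups came from the sample titles. The 44 control probe sets were left out. Gene names are those of the platform annotation, brought up to date by gene number through a RefSeq table (41 of 41 members matched). Of the probe sets, 12443 had 1 gene, 327 several and 1196 none. The array table was used without detection calls, and the number of arrays limits the precision.

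The 6 group means were fitted to all 18 arrays with limma 3.58.1 in R 4.3.3 (lmFit, eBayes), with Benjamini-Hochberg adjustment over 13966 probe sets in each of 8 comparisons. The fit was tested on simulated data. Members and gene lists were chosen with earlier results of these data known. The rule named called members, the catalytic subunits, the 3 largest rises and falls in each comparison with wild type, the 3 brightest and dimmest members, duplicates by level, and called genes of the related lists. The other named subunits and related genes were chosen after their values were seen. Alternatives changed the arrays fitted, scaling, moderation, weights of arrays, the removal of dim probe sets, the replicate block and each array. No sequence is shown.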

Additional observations from a re-analysis of the deposited data

How the results depend on the processing

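The median log2 change of the 41 members ranged over the alternatives from -0.076 to -0.022 in EGFR gain, 0.028 to 0.063 in EGFR loss, -0.019 to 0.036 in BMP gain and -0.019 to 0.021 in BMP loss, and none of the called changes turned direction. Counts of called members moved as follows. Fits to the 6 arrays compared called 0 members in BMP gain, 0 between EGFR gain and EGFR loss and 0 between EGFR loss and BMP gain. Alternatives that tested all 13966 probe sets called 62 to 588 in EGFR gain (392 in the report), 28 to 725 in EGFR loss (443), 95 to 578 in BMP gain (334), 55 to 488 in BMP loss (320), 2 to 446 between EGFR gain and EGFR loss (293), 41 to 281 between EGFR gain and BMP gain (178), 17 to 507 between EGFR loss and BMP gain (279) and 35 to 89 in the difference of the BMP responses (60), each lowest but the last from the 6 arrays alone. A fit to round 1 called 0 between EGFR gain and EGFR loss, beside 157 over all probe sets. An intensity trend with robust moderation called 2 in EGFR gain (Prosbeta4, Rpt5), 1 in EGFR loss (Rpn2), 2 between EGFR gain and EGFR loss, 2 between EGFR gain and BMP gain, 2 between EGFR loss and BMP gain (Prosalpha5, Rpt5) and 1 in the difference of the BMP responses (Rpt5). In the same order, that fit called 588, 725, 446, 281, 507 and 89 over all 13966 probe sets. Array weights called 1 in EGFR loss (the dimmer probe set of Prosbeta6, adjusted p = 0.0443) and 0 between EGFR gain and EGFR loss, beside 409 and 229 over all probe sets. Testing only probe sets at or above the median mean called 1 in EGFR gain, 1 in EGFR loss, 1 between EGFR gain and BMP gain, 2 between EGFR loss and BMP gain and 1 in the difference of the BMP responses. Fewer tests were then adjusted for. In the same order, 614, 752, 288, 589 and 87 of the 6983 probe sets tested in that setting were called. Leaving out 1 array gave 0 to 1 in EGFR loss (Rpn2 without EGFR loss replicate 1, Prosbeta6 without EGFR loss replicate 3) and 0 to 1 between EGFR gain and EGFR loss. Without EGFR loss replicate 1 or 3, 438 and 346 of all probe sets were called in EGFR loss. Between EGFR gain and EGFR loss, leaving out 1 array called 173 to 270 of all probe sets. Same-numbered arrays of different groups deviated together only weakly (correlations between -0.025 and 0.091 in round 1 and -0.024 and 0.004 in round 2). Yet 9 of 12 round 1 arrays, and 1 of 6 in round 2, correlated best with an array of their own number. Whether the numbers pair the arrays was thus not settled. With the replicate block, 0 members were called between EGFR gain and EGFR loss (Prosbeta4, adjusted p = 0.105), beside 167 over all probe sets. The causes of these moves were not tested otherwise. Background was not measured here, and the intervals are wider for the dim duplicates than for the bright subunits.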

Other observations

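A bright probe set lies outside the members, because its annotation lists both the alpha subunit gene Prosalpha1 and its duplicate Prosalpha1R. Its signal cannot be assigned to either gene alone. It read 9.23, 9.05 and 9.41 in EGFR gain, 9.16, 9.24 and 9.21 in EGFR loss and 9.55, 9.45 and 9.42 in BMP gain, against 10.66, 10.29 and 10.29 in wild type A. In BMP loss it read 9.09, 9.10 and 9.20, against 9.84, 9.73 and 9.83 in wild type B. All 12 arrays with the driver lay below all arrays of their wild type, with log2 changes of -1.18, -1.21, -0.94 and -0.68 and adjusted p of 5.18e-05, 4.97e-05, 0.000294 and 0.00529 by limma. Between the groups that share the driver it was not called: EGFR gain minus EGFR loss was 0.03 (adjusted p = 0.952), EGFR gain minus BMP gain -0.24 (adjusted p = 0.426) and EGFR loss minus BMP gain -0.27 (adjusted p = 0.25). The signalling transgene and the driver line cannot be told apart in the comparisons with Oregon R.

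Sem1, whose symbol lies outside the pattern, had log2 changes of -0.05 in EGFR gain, 0.27 in EGFR loss, 0.14 in BMP gain and 0.05 in BMP loss, and was not called (adjusted p between 0.3 and 0.929). In EGFR loss Sem1 read 9.56, 9.49 and 10.02, against 9.37, 9.40 and 9.50 in wild type A, with its highest value on replicate 3, the array with the 3' skew.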
